A study of Mus musculus with 18 samples.

Results

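The IL-4 response of wild-type (WT) macrophages was measured by RNA sequencing in 6 of the 18 libraries of the series, 3 treated with interleukin 4 (IL-4) and 3 left untreated. The 6 libraries were chosen by the treatment and the WT code in their names. The same 3 codes, numbered WT1 to WT3 in the titles and called replicates 1 to 3 here, occur in both groups, and the labels do not say whether a code is an animal, so the groups were compared unpaired. The cells were primary macrophages grown from bone marrow flushed from the femur, cultured for 7 days in DMEM with 15% serum and 30 ng/mL M-CSF, the growth factor that drives marrow progenitors to become macrophages. Recombinant mouse IL-4 was then given for 24 hours, a treatment widely used to obtain what is called the M2 state. WT refers to an intact Ldha gene. Beside these stand 3 WT libraries treated with interferon gamma (IFN-gamma, toward the M1 state) and 3 untreated and 3 IL-4 libraries from mice labelled Ldha knockout (KO), which the series title describes as specific to macrophages. For the IL-4 dose, the strain, sex and age of the mice, and the driver of the knockout, nothing is given in the sources used here.

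IL-4 is sensed by a receptor made of the IL-4 receptor alpha chain (Il4ra) paired with the common gamma chain (Il2rg) or with Il13ra1. Janus kinases bound to these chains phosphorylate STAT6, which enters the nucleus and binds DNA at paired TTC and GAA letters. In macrophages the resulting program, alternative activation, is known for arginase, chitinase-like proteins, lectins and chemokines, for altered lipid metabolism, and, in long cultures, for fusion into giant cells. IFN-gamma is known for nitric oxide synthase, guanylate-binding proteins and antigen presentation.

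The values are the authors' normalized counts, that is, read counts per gene divided by 1 scaling factor for each library, and they are given below in the order of replicates 1, 2 and 3. The untreated libraries held 28.9 to 42.2 M counted reads (M for mega) and the IL-4 libraries 28.4, 9.77 and 49.5 M. The IL-4 library of replicate 2 stood apart: it had 15439 genes above 0, against 18539 to 19676 in the other 5, and 3 features with very high counts (CT010467.1, Mir6236 and Lars2) took 4.7% of its normalized total, against 1.21% to 2.3% in the others. Of the macrophage markers Csf1r, the M-CSF receptor, was at 90092, 83118 and 86351 untreated and 91800.2, 85961 and 91977 with IL-4, and Adgre1, which encodes F4/80, at 59495, 66435 and 78342 and 54784, 64219.7 and 58222; neither was called, though Adgre1 was called lower after quantile normalization (-0.51). Of 19 tested macrophage identity genes 3 rose and 5 fell (1 rose after quantile normalization, without the IL-4 library of replicate 3, or without the untreated library of replicate 2 or 3). Their summed normalized counts were 1082062 to 1198683 untreated and 756451 to 805446 with IL-4, and the 5 that fell include Lyz2, described further on. Listed markers of other cells ranged from 0 to abundant, and their part in the results was not tested. The stromal list summed to 266 to 736 normalized counts untreated and 333 to 1130 with IL-4, with 1 of its 12 tested genes called (Pdgfrb, higher, a call lost without any of 4 single libraries). Of 3 tested neutrophil genes 1 was called, the growth factor receptor Csf3r, which rose by 1.06, while S100a8 stayed under 10 and Ngp was at 0 in all 6 libraries. Of 2 tested B-cell genes 1 was called: Ighm, the heavy chain of IgM, went from 1078, 1189.9 and 1071 to 187, 390.2 and 344 (log2 change -1.92, SE 0.41, limma adjusted p = 0.0017). The other, Cd79b, was at 17.54, 36.08 and 27.66 untreated and 18.57, 13.11 and 20.01 with IL-4. Its log2 change was -0.59, its groups overlapped and it was not called. Cd79a and Ms4a1 were too low to be tested, at or near 0 throughout. Of 4 T-cell and NK-cell genes Il7r, the IL-7 receptor chain, was abundant at 17928, 15597 and 15560.0 untreated and 22600.5, 17564 and 17553 with IL-4 and was not called, and Cd4 fell (not called without the untreated library of replicate 2 or 3), and of 6 endothelial genes Pecam1 and Vwf rose and Kdr fell, with Vwf at 3778, 2667 and 2248 untreated and 7067, 4308 and 5323 with IL-4 and Tie1 near 0. In limma 0 of 3 tested mast-cell, basophil and eosinophil genes and 0 of 2 erythroid and megakaryocytic genes were called (1 and 1 at an unadjusted p under 0.05); 2 of the former were called higher in edgeR, in DESeq2, after quantile normalization and without the IL-4 library of replicate 2, and 1 of the latter lower in edgeR, in DESeq2 and with 5 added before the log. In bulk RNA, fewer cells of a type and less RNA per cell cannot be told apart.

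IL-4 changed the level of a large share of the transcriptome, mostly by small amounts. Of 14288 genes tested, 4332 (30.3%) passed limma's test at an adjusted p under 0.05, with 2332 higher (16.3%) and 2000 lower (14%). The change was at least 2-fold for 624 higher genes (4.37% of those tested) and 680 lower genes (4.76%), together 9.13%, while 3028 of the called genes changed by less than 2-fold. At the extremes, 55 genes rose and 8 fell by at least 16-fold. The treated and untreated libraries did not overlap for 4180 of the called genes, beside 22% (higher) and 21.7% (lower) of all tested genes. Log2 changes and the 2-fold and 16-fold limits are on the scale of log2(normalized count + 1), which understates the change of genes with low counts, and a bare figure after "rose by", "fell by" or "at" is a log2 change. Folds given with a counting interval, or as a lower bound for a gene without untreated reads, are instead ratios of reads scaled by depth. They lack the added 1 and are not on the scale of the log2 changes. The median log2 change of all tested genes was -0.01. Gene lists are described below by how many of their members passed the filter on low values (at least 10 normalized counts in 3 of the 18 libraries) and how many of those were called. A gene present only in treated cells passed the filter through those cells, so these counts are descriptions.

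**Figure D1:**
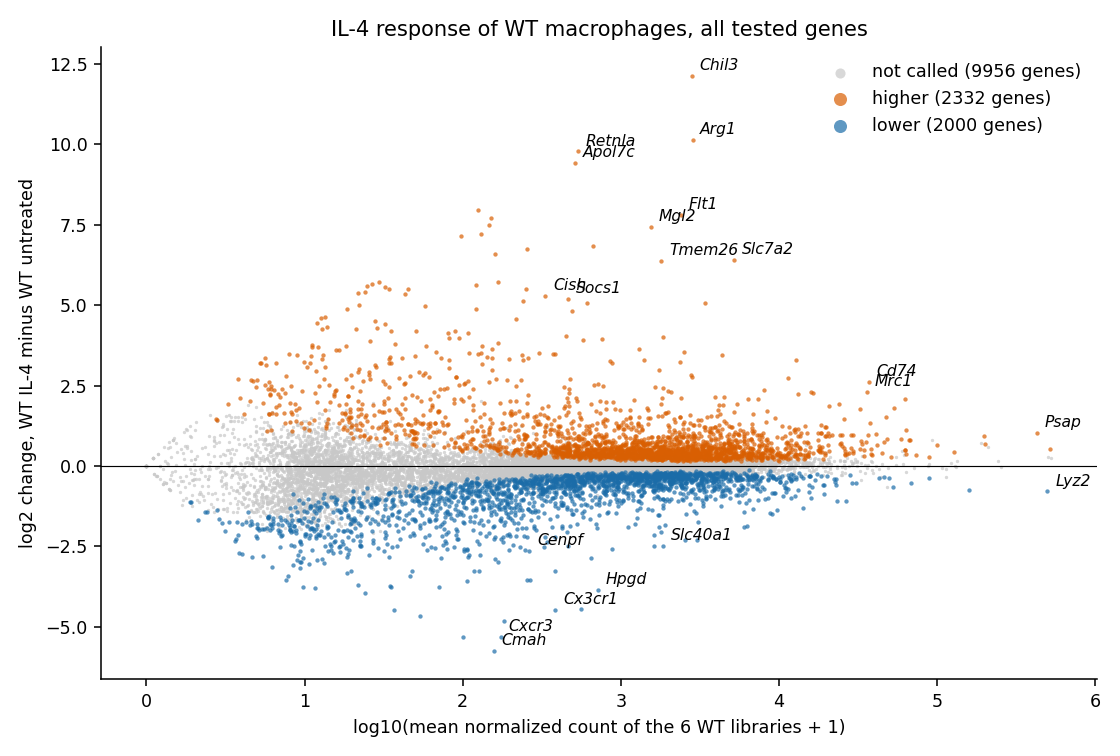
Change with IL-4 in WT macrophages (vertical, log2) against the mean level in the 6 libraries (horizontal, log10 of the normalized count + 1), 1 point per tested gene, with the 2332 genes called higher, the 2000 called lower and the rest in grey. Chil3, Arg1 and Retnla lie at the top, Cmah and Cxcr3 at the bottom, and the abundant genes Psap and Lyz2 at the right changed by 1.03 and -0.79.

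Il4ra and Stat6 did not pass the test, while 3 inhibitors that dampen the signal, Cish, Socs1 and Socs2, rose. Of 15 listed receptor and JAK-STAT6 genes 13 passed the filter, and of these 3 rose, 2 fell and 8 did not pass the test, with a median log2 change of 0.05. The called share was 38.46%, beside 30.3% of all tested genes. Il4ra stood at 1857, 1843 and 1837 normalized counts untreated and 2481, 1987 and 2034 with IL-4 (log2 change 0.22, SE 0.09, limma adjusted p = 0.07). Stat6 stood at 7830.0, 7878 and 8216 and 7295, 7502 and 7793 (log2 change -0.08, SE 0.06, limma adjusted p = 0.29). Neither gene's groups overlapped, with the treated libraries of Il4ra slightly higher and those of Stat6 slightly lower; Il4ra was called without the IL-4 library of replicate 2, and Stat6 was called lower after quantile normalization. Jak2, a kinase better known downstream of other cytokine receptors, rose from 1826, 1734 and 1892 to 4901, 4180.3 and 4109 (log2 change 1.27, SE 0.11, limma adjusted p = 1.4e-07), the Shc1 adaptor rose by 0.90 and Il2rg by 0.49, whereas Il13ra1 and the PI3-kinase subunit Pik3r1 fell, with log2 changes of -0.80 and -0.29. The higher members numbered 5 without the IL-4 library of replicate 2.

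Of the 14 feedback inhibitors, 7 rose and 4 fell (2 fell without the IL-4 library of replicate 2), with a median of 0.24. SOCS proteins and CIS, encoded by Cish, bind cytokine receptors or JAKs and dampen their signal. Cish went from 23.4, 9.02 and 16.5 to 843, 492 and 602 (log2 change 5.28, SE 0.35, limma adjusted p = 5.5e-09). Socs1 went from 20.5, 18 and 34.9 to 679, 967 and 1068 (log2 change 5.18, SE 0.20, limma adjusted p = 8.0e-12), and Socs2 from 8.77, 8.12 and 4.61 to 252, 209.8 and 234 (log2 change 4.87, SE 0.37, limma adjusted p = 2.9e-08). For all 3 genes the lowest treated library was several times the highest untreated library. Socs3, the inhibitor best known for the IL-6 receptor, gave 42.9, 21.6 and 38.2 untreated and 119, 36.1 and 99.4 with IL-4 (log2 change 1.17, SE 0.32, limma adjusted p = 0.0098); the treated library of replicate 2 lay within the untreated range, and the call was lost without the IL-4 library of replicate 1 or 3, without the untreated library of replicate 2, and in a fit of the 6 WT libraries alone. The phosphatase Ptpn6 (SHP-1) and the STAT inhibitor Pias3 fell, with log2 changes of -0.57 and -0.47.

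The alternative activation markers included Chil3, Arg1 and Retnla, the 3 largest log2 changes of all tested genes. Of 35 listed markers 26 passed the filter, and of these 22 rose (16.3% of all tested genes did), 20 of them at least 2-fold, 1 fell (F13a1, a coagulation factor subunit, whose call was lost without the IL-4 library of replicate 2 or the untreated library of replicate 1 or 3) and 3 did not pass the test. The list median was 2.89, also with the genes absent from untreated cells set at their lower bounds, beside -0.01 for all genes. The list is made of genes known from IL-4 responses, so its direction was part of how it was drawn up.

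Arg1 (chr10:24915221-24927484, GRCm38), the arginase that turns arginine into ornithine and urea, stood at 4.87, 4.51 and 2.63 normalized counts untreated and at 7319, 4200.0 and 5491 with IL-4 (log2 change 10.14, SE 0.48, limma adjusted p = 9.5e-11). Chil3 (chr3:106147554-106167564), a secreted chitinase-like protein also called Ym1, was covered by 1 read in the 3 untreated libraries together and by 16181 in the treated ones, at 7005, 4587 and 5232 normalized counts. That ratio was 20962-fold with a 95% counting interval of 3762 to 827991. Reads of its near-identical neighbour Chil4 (25.1, 36.1 and 15 with IL-4) may be shared with it. Retnla (chr16:48842551-48844461), a secreted resistin-like protein known as Fizz1, had no read in any untreated library and 342, 1675 and 1185 normalized counts with IL-4, at least 1174-fold higher against a floor of 3 reads over the untreated group. Rnase2a, a ribonuclease of the eosinophil-associated family, likewise went from no read to 251, 216 and 273 normalized counts, at least 316-fold higher. The IL-4 library of replicate 1 had the highest Arg1 and Chil3 and the lowest Retnla, so the 3 libraries did not share an order over these genes.

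Letters known for STAT6 or for other STATs are shown in the promoters of Retnla, Tmem26, Ccl17, Chil3 and Cish. The windows were taken from RefSeq (GRCm38.p6, 250 bases before to 50 after a start site, each on its gene's strand, 5′ to 3′). Both motifs were searched on either strand, and a single TTC can begin matches of both. Capitals mark TTC-N4-GAA (TTC and GAA with 4 letters between), the spacing known for STAT6, in Retnla and Tmem26, TTCNNNGAA, the spacing known for other STATs, in Chil3 and Cish, and both in Ccl17. These genes were picked for printing after the matches were seen.
Retnla, chr16:48842359-48842658, plus strand: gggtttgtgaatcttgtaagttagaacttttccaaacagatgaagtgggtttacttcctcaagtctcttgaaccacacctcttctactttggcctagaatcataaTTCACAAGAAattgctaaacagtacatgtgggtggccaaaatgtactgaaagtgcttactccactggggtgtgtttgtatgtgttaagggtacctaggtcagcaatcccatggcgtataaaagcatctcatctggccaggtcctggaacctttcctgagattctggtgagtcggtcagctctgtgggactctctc
Tmem26, chr10:68723496-68723795, plus strand: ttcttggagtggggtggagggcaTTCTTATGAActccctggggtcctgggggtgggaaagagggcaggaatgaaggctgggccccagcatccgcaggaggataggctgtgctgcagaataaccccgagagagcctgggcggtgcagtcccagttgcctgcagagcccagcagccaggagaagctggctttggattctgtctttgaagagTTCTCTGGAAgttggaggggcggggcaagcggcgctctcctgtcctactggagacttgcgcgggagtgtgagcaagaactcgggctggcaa
Ccl17, chr8:94810203-94810502, plus strand: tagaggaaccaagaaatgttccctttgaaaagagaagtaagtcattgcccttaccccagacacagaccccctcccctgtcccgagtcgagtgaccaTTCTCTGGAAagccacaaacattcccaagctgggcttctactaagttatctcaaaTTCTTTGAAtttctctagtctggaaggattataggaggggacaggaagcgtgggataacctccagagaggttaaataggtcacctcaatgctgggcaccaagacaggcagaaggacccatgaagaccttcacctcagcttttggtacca
Chil3, chr3:106167515-106167814, minus strand: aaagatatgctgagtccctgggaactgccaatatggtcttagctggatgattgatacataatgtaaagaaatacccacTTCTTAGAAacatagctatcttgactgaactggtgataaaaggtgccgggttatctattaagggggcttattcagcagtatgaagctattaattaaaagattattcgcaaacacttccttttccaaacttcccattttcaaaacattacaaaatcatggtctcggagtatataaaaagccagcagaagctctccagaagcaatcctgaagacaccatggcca
Cish, chr9:107296409-107296708, plus strand: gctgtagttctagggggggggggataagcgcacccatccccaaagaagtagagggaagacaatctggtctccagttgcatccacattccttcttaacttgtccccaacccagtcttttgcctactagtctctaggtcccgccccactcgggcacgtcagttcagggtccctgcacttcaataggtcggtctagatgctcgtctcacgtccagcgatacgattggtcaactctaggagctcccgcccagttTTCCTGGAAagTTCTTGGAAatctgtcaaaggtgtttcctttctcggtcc
The match in Retnla begins 145 bases before the start site, those in Tmem26 227 and 41 bases before it, and the STAT6-type match in Ccl17 154 bases before it. The other match in Ccl17 begins 99 bases and that in Chil3 172 bases before the start. In Cish the 2 matches begin at bases 1 and 12 after the start. Over all 10230 tested genes with a RefSeq window, 6.69% held TTC-N4-GAA on either strand, against 10.04% of the 448 genes called at least 2-fold higher, 8.16% of the 429 called at least 2-fold lower, and 5 of 19 alternative activation markers. It occurred in 0 of 8 feedback inhibitors, 0 of 15 cholesterol synthesis genes and 2 of 10 fatty acid synthesis genes. Among replication and mitosis genes it occurred in 1 of 19 and 2 of 19. For all called genes without the fold limit, the shares were 7.83% of the higher and 6.4% of the lower. TTCNNNGAA occurred in 8.19% of all genes, 9.15% of those at least 2-fold higher and 7.93% of those at least 2-fold lower, and the letters AGGTCA repeated with 1 base between, known for PPAR and RXR, in 0.05%, 0.22% and 0%. Over all 32851 windows of this length the 3 shares were 6.95%, 8.3% and 0.04%. These shares describe letters only.

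Cell-surface and transport genes of the same list rose together with the enzymes. Mrc1, the mannose receptor CD206, was abundant without IL-4, at 10316, 12331 and 14060.3, and reached 62567, 57764 and 58654 (log2 change 2.30, SE 0.25, limma adjusted p = 1.9e-06). Mgl2, a galactose-type lectin, went from 28.2, 16.2 and 10.5 to 2854, 3154 and 3259 (log2 change 7.42, SE 0.35, limma adjusted p = 9.6e-11), and its neighbour Clec10a from 228, 179.5 and 223 to 1368, 1207 and 1103 (log2 change 2.54, SE 0.30, limma adjusted p = 4.8e-06). The groups of these 3 genes did not overlap, and within each the 3 treated libraries differed by less than 1.5 times. Slc7a2, a transporter of cationic amino acids including arginine, went from 134, 152 and 80.3 to 12523, 7839 and 10493 (log2 change 6.41, SE 0.32, limma adjusted p = 1.6e-10). Pdcd1lg2, the inhibitory T cell ligand PD-L2, went from 19.5, 3.61 and 15.2 to 1275, 1312 and 1347 (log2 change 6.83, SE 0.38, limma adjusted p = 5.6e-10), and Tmem26, a membrane protein of little known function, from 41.9, 43.3 and 39.5 to 3362, 3439 and 3887 (log2 change 6.38, SE 0.30, limma adjusted p = 1.0e-10). Cdh1, the adhesion protein E-cadherin, reached 42.6, 105 and 103 from at most 2.71. The members that did not pass the test were the cholesterol hydroxylase Ch25h at 0.86 (called without the IL-4 library of replicate 2), the IL-1 receptor antagonist Il1rn at -0.30 (called lower without that of replicate 1) and the haemoglobin scavenger receptor Cd163 at -0.83 (adjusted p = 0.12, limma; called lower in edgeR and DESeq2).

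**Figure D2:**
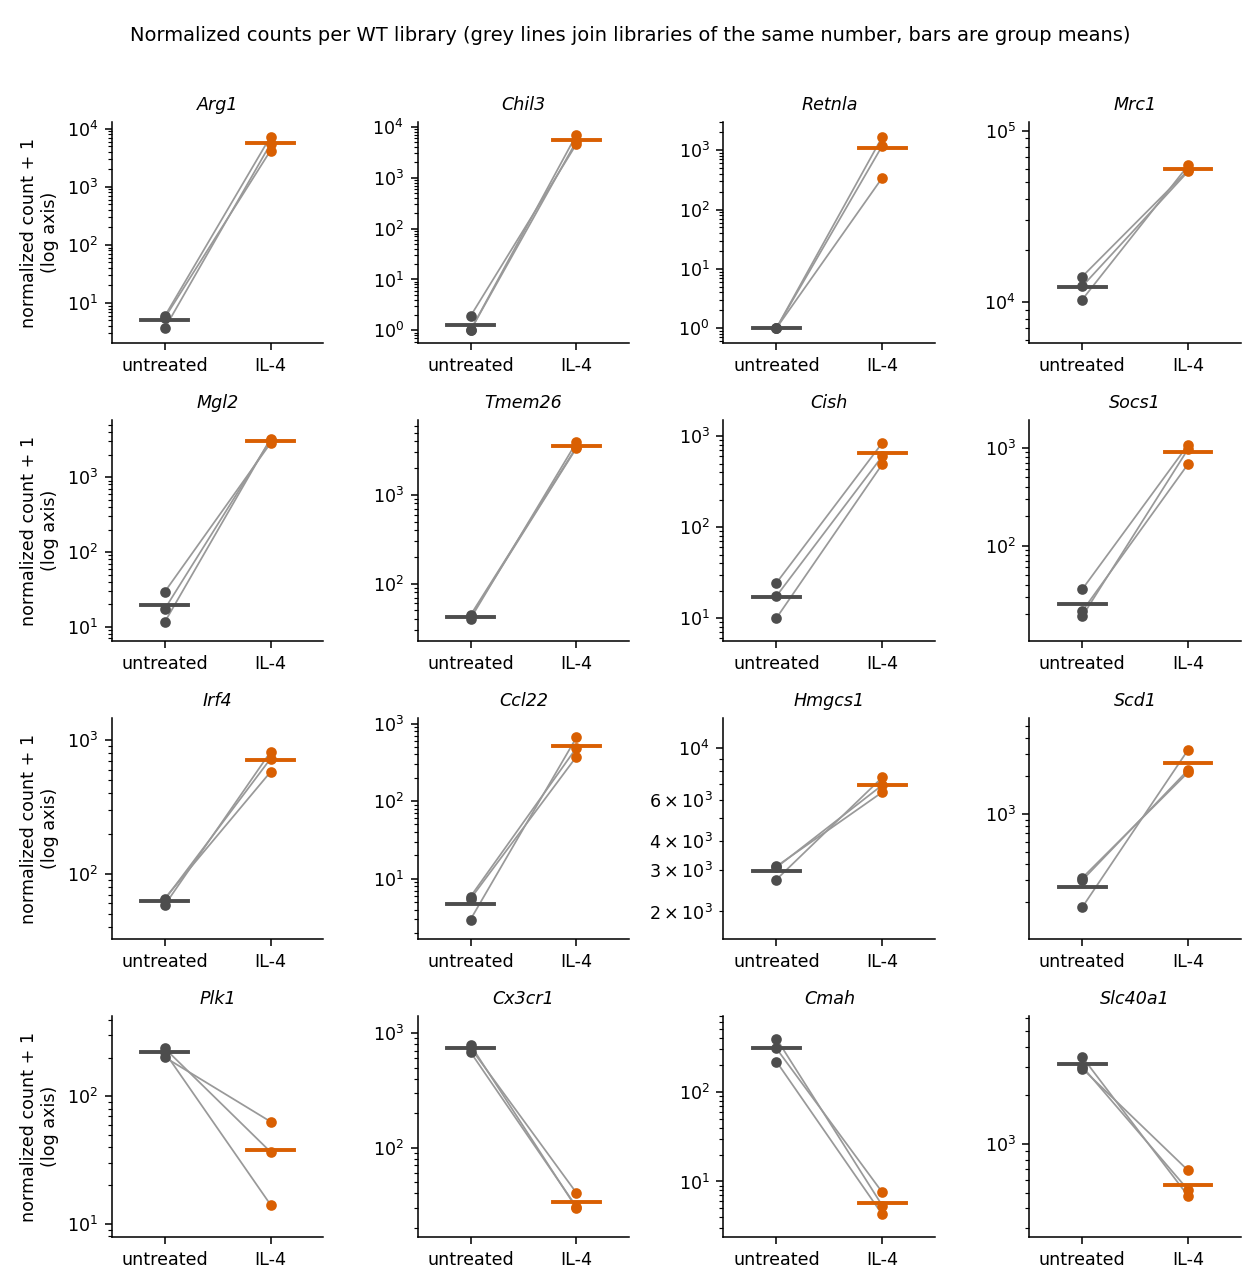
Normalized count + 1 (vertical, log axis) of 16 genes in the 3 untreated and 3 IL-4 WT libraries, 1 point per library, with grey lines joining libraries of the same number and bars at the group means. In each panel the 3 treated libraries lie on 1 side of the 3 untreated ones.

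Further genes had large changes or small adjusted p. Flt1, the VEGF receptor VEGFR1 and one of the 22 listed markers that rose, went from 32.1, 16.2 and 15.8 to 3776, 5095 and 5451 (log2 change 7.79, SE 0.28, limma adjusted p = 3.4e-12), with the lowest treated library at more than 100 times the highest untreated one. The other genes of this paragraph are in none of the lists. Apol7c, an apolipoprotein L family member, went from 2 reads in all untreated libraries to 849, 1219.7 and 1017 normalized counts, a ratio of 1798-fold (95% counting interval 497 to 14855). The growth factor gene Nrg1 (neuregulin 1) was also at 2 reads untreated and reached 490.4, 148 and 141 normalized counts, with replicate 1 at more than 3 times the other libraries. Cldn11, a tight-junction claudin, gave 281, 88.5 and 210.1 normalized counts, against 1 untreated read. Tarm1, a receptor of myeloid cells, rose by 6.59, Rasgrp1, an activator of Ras, by 5.72 and Ablim1, an actin-binding protein, by 5.11. Genes with the smallest adjusted p added Cst7, the cystatin F gene encoding an inhibitor of lysosomal proteases, which went from 47.7, 44.2 and 50.7 to 550.5, 613 and 502 (log2 change 3.52, SE 0.12, limma adjusted p = 3.0e-12), and 3 genes of moderate fold and small spread: Smap2 (log2 change 2.09), Ralgds (2.11) and Ap2m1 (1.48, a subunit of the clathrin adaptor).

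Of 6 chemokines known from IL-4 responses 4 passed the filter, and these 4 rose (2 with a mean of at least 50 required). Ccl22, which attracts CCR4-bearing T cells, went from 4.87, 4.51 and 1.98 to 486, 374 and 661 (log2 change 6.75, SE 0.30, limma adjusted p = 5.0e-11). Ccl17, a ligand of the same receptor, was without a read in untreated cells and stayed low at 15.3, 29.5 and 29.4 normalized counts, at least 30.2-fold higher. Ccl24, an eosinophil attractant, gave 2.92, 1.80 and 0 and 29.5, 13.1 and 46.3 (log2 change 3.62, SE 0.69, limma adjusted p = 6.1e-04). Ccl8 went from 5.84, 16.2 and 9.88 to 511, 446 and 510.1 (log2 change 5.49, SE 0.45, limma adjusted p = 6.1e-08). Ccl17 and Ccl24 thus stayed under 50 counts in each treated library, and Ccl22 and Ccl8 above 300.

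The 17 tested inflammatory chemokines split, with 7 higher, 4 lower and 6 not passing the test. Monocyte attractants rose: Ccl7 from 44.8, 59.5 and 42.8 to 531, 1088 and 931 (log2 change 4.04, SE 0.46, limma adjusted p = 2.9e-06), Ccl12 by 3.19 and Ccl2 by 1.66. Ccl9, already abundant, went from 21525, 22281 and 20462 to 48528, 56764 and 56790.2 (log2 change 1.33, SE 0.11, limma adjusted p = 4.6e-08). Ccl3 and its relative Ccl4 fell, Ccl3 from 2188, 2278 and 2301 to 797, 934 and 867 (log2 change -1.38, SE 0.20, limma adjusted p = 5.3e-05) and Ccl4 with a log2 change of -1.29. The lower calls numbered 2 without the IL-4 library of replicate 2, or without the untreated library of replicate 1 or 3.

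Among 18 tested chemoattractant receptors, 5 rose and 7 fell (5 without the IL-4 library of replicate 2). Ccr1 rose by 2.40, Gpr183 by 1.24 and Cmklr1 by 1.09. The largest falls in the list were those of Cx3cr1 and the formyl peptide receptors. Cx3cr1, the fractalkine receptor, went from 680.0, 742 and 786 to 29.5, 39.3 and 28.8 (log2 change -4.47, SE 0.36, limma adjusted p = 5.3e-08), leaving 4.42% of the untreated mean. The formyl peptide receptors Fpr1 and Fpr2 and the complement C5a receptor C5ar1 fell, with log2 changes of -3.76, -3.59 and -0.99. Cxcr3, a chemokine receptor outside this list that was named for its large fall, went from 345, 291 and 356 to 22.9, 0 and 23.1, with no read in the shallow library of replicate 2 (log2 change -5.31, SE 0.78, limma adjusted p = 5.1e-05).

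Transcription factors linked to IL-4 mostly rose: 13 of 19 were higher and 2 lower, with a median of 1.03. Irf4, which macrophages need for part of the IL-4 program, went from 64.3, 63.1 and 57.3 to 577, 725 and 815 (log2 change 3.48, SE 0.22, limma adjusted p = 3.5e-09). Bhlhe40 went from 834, 857 and 540.1 to 7679.9, 7390.2 and 8720.4 (log2 change 3.44, SE 0.31, limma adjusted p = 2.1e-07), and Egr2 from 17.5, 19.9 and 30.3 to 133, 161 and 176 (log2 change 2.77, SE 0.25, limma adjusted p = 1.9e-07). The groups of these 3 genes did not overlap. Klf4 rose by 1.75, the histone demethylase Kdm6b by 1.57, Tfec by 1.33 and the lipid-sensing nuclear receptor Pparg by 0.90, with its coactivator Ppargc1b at 1.05. Maf, abundant in resident macrophages, went from 7931, 9641 and 11067 to 2201, 2692 and 2749.5 (log2 change -1.90, SE 0.18, limma adjusted p = 3.2e-07) and Id3 fell by 2.18. Myc was at 269, 372 and 381 and 289.5, 809.8 and 746, with the treated library of replicate 1 within the untreated range (log2 change 0.73, SE 0.29, limma adjusted p = 0.069); Myc was called higher without that library, in edgeR and in DESeq2.

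Lipid synthesis genes rose together. Of 22 listed cholesterol synthesis genes 21 passed the filter, and these 21 rose, 10 of them at least 2-fold, with log2 changes from 0.50 to 1.80 and a median of 0.97, beside 16.3% of all tested genes called higher. Hmgcs1, which makes the first committed intermediate, went from 3116, 3084 and 2737 to 6473, 6941 and 7486 (log2 change 1.23, SE 0.11, limma adjusted p = 1.9e-07). The treated libraries lay above the untreated ones. Fdps, at the branch to isoprenoids, changed most (1.80), followed by Mvd (1.63) and Fdft1, squalene synthase (1.48). The regulator Srebf2 rose by 0.53. The count was 21 in each alternative analysis that kept the threshold of 0.05.

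The promoter of Hmgcs1 is printed with TCACNCCAC, letters known as a sterol regulatory element, in capitals; the motif was added after the list had been seen.
Hmgcs1, chr13:119690101-119690400, plus strand: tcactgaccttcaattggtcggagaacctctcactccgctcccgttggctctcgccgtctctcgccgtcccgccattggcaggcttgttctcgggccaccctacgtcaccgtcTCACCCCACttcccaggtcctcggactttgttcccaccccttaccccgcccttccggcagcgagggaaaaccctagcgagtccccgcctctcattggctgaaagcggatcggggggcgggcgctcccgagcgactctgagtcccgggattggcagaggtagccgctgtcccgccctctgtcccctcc
The match begins 137 bases before the start. It was the only one among 15 cholesterol genes with a window, and 1.41% of all tested genes held these letters.

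Of 13 fatty acid synthesis genes 12 were higher. Scd1, the desaturase that makes oleate, went from 309, 296 and 179.8 to 2151, 2246 and 3253 (log2 change 3.29, SE 0.26, limma adjusted p = 5.0e-08), and Scd2, its relative, from 5663, 6119.8 and 5041 to 21282, 26662 and 34054 (log2 change 2.26, SE 0.18, limma adjusted p = 4.7e-08). The desaturase Fads2 rose by 1.81, fatty acid synthase Fasn by 0.80 and the regulator Srebf1 by 0.64.  Lipid uptake genes gave 10 higher and 1 lower of 19: the scavenger receptor Cd36 went from 17939, 26481 and 30157 to 51672, 79387 and 80312 (log2 change 1.51, SE 0.20, limma adjusted p = 1.9e-05), and Olr1, the receptor for oxidized LDL, from 2.92, 0.902 and 2.63 to 211, 49.2 and 76.3 (log2 change 4.96, SE 0.60, limma adjusted p = 6.7e-06). Lipa, lysosomal acid lipase, fell by 0.38, and the lower members numbered 2 without the IL-4 library of replicate 3.

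Energy metabolism genes moved by smaller steps. In fatty acid oxidation, 12 of 20 were higher and none lower, the largest step being 0.55 (Ucp2, an uncoupling protein); Cpt1a, the carnitine transferase that admits fatty acids to mitochondria, was at -0.26 (adjusted p = 0.061, limma), and was called lower without the IL-4 library of replicate 3 and after quantile normalization. Glycolysis gave 13 higher and none lower of 20. Ldha, lactate dehydrogenase A, went from 12204, 11939 and 10712 to 22901, 23518 and 25145 (log2 change 1.04, SE 0.08, limma adjusted p = 1.8e-08), the glucose transporter Slc2a1 rose by 0.93 and hexokinase Hk2 by 0.81. Of 36 nuclear-encoded respiratory chain subunits 24 were higher, with a median of 0.38, while 0 of the 7 mitochondrially encoded transcripts tested, of 13 listed, were called (median 0.03). The respiratory count was 15 after quantile normalization, 20 with TMM factors, and 14 to 29 with 1 library left out, the lowest without the IL-4 or the untreated library of replicate 3. Of 25 TCA cycle genes 15 were higher and 2 lower (9 and 2 after quantile normalization), led by Acod1, which makes itaconate, at 2438, 1596 and 1376 untreated and 7348, 3964 and 4429 with IL-4 (log2 change 1.53, SE 0.21, limma adjusted p = 2.0e-05). The normalized libraries summed to 27.8 to 28.1 M untreated and 31 to 32 M with IL-4, and mitochondrial transcripts took 1.95% to 2.11% and 1.5% to 1.92% of the totals. The part of these differences in the small steps was not tested.

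**Figure D3:**
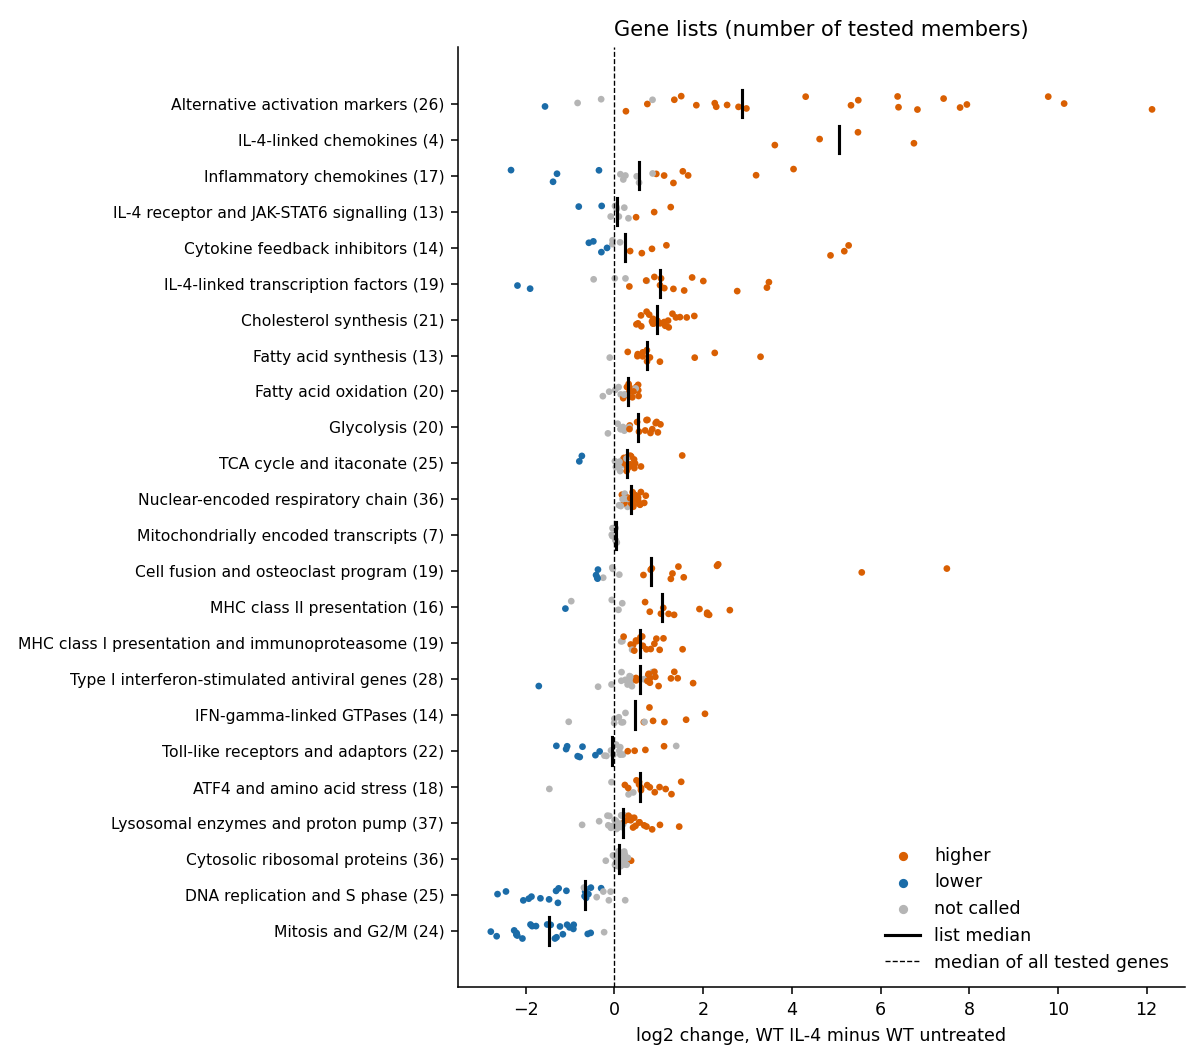
Log2 change with IL-4 in WT macrophages (horizontal) for the tested members of 24 gene lists, 1 point per gene, colored by call, with a black bar at each list's median and a dashed line at the median of all tested genes (-0.01). All cholesterol synthesis genes lie to the right of 0, and 23 of 24 mitosis genes were called lower.

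Amino acid stress and protein folding genes rose in the same range. Of 18 ATF4-linked genes 14 were higher and none lower, among them the serine synthesis enzymes Phgdh (1.51) and Psat1 (1.29), asparagine synthetase Asns (0.74) and Atf4 itself (0.60). Of 16 folding genes of the endoplasmic reticulum, 12 were higher and 1 lower (8 and 2 after quantile normalization), led by the disulfide isomerase Pdia4 (1.28). The cystine transporter Slc7a11, which feeds glutathione synthesis, rose by 1.78, while Sod1, the cytosolic superoxide dismutase, fell by 1.00.

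Genes of cell fusion and the osteoclast program were mostly higher, 11 of 19, with 4 lower. Ocstamp, a membrane protein needed for fusion, went from 0, 0 and 2.63 to 228, 219.7 and 421 (log2 change 7.50, SE 0.43, limma adjusted p = 1.0e-09). Its partner Dcstamp went from 371, 509 and 363 to 749, 1193 and 1550.4 (log2 change 1.44, SE 0.26, limma adjusted p = 3.0e-04). Atp6v0d2, a proton pump subunit, went from 5328, 6018 and 4692 to 25374, 28151 and 25901 (log2 change 2.31, SE 0.17, limma adjusted p = 1.8e-08). Itgb3, the integrin beta 3 chain, rose by 2.34, tartrate-resistant phosphatase Acp5 by 1.56 and cathepsin K, Ctsk, by 1.27, while Nfatc1, the master regulator of osteoclasts, was at -0.25 and did not pass the test except without the IL-4 library of replicate 1, with TMM factors and after quantile normalization. Of 37 lysosomal genes 16 were higher and none lower (1 lower without the IL-4 library of replicate 3); after quantile normalization 13 were higher and 6 lower.

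Antigen presentation genes rose with IL-4, and Cd74 and H2-Aa stood below their level with IFN-gamma. Of 16 tested class II genes 11 rose and 1 fell (H2-DMb2, -1.10, not called without the untreated library of replicate 2 or 3, without the IL-4 library of replicate 1, or in a fit of the 6 WT libraries alone). Cd74, the invariant chain, went from 13158, 10638 and 7977 to 65598, 61741 and 61866 (log2 change 2.60, SE 0.19, limma adjusted p = 1.5e-08), against 243462, 213171 and 193039.7 with IFN-gamma (log2 difference -1.77, SE 0.19, limma adjusted p = 2.5e-07, IL-4 minus IFN-gamma). H2-Aa went from 2879.9, 2576 and 1885 to 11763, 9059 and 10212 (log2 change 2.09, SE 0.21, limma adjusted p = 5.8e-07), against 63944, 48703 and 42694 with IFN-gamma (log2 difference -2.31, SE 0.21, limma adjusted p = 2.5e-08). The class II transactivator Ciita rose by 1.35. Of 19 class I genes 16 were higher, at a median of 0.59, B2m, the class I light chain, at 0.64. Among ligands for T cells, the inhibitory Cd274 (PD-L1) rose by 1.90 and the costimulatory Cd40 by 1.41, while Icosl fell by 1.98.

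Gbp2 and Nos2, known as IFN-gamma markers, rose with IL-4 to levels below those with IFN-gamma, and other such genes were divided. Gbp2, a guanylate-binding protein, was at 537, 429 and 449 untreated, 1982, 2098 and 1749 with IL-4 (log2 change 2.04, SE 0.17, limma adjusted p = 7.7e-08) and 227178, 248587 and 227598 with IFN-gamma. Nos2, the inducible nitric oxide synthase, was at 41.9, 38.8 and 38.2 untreated, 719, 243 and 348 with IL-4 (log2 change 3.28, SE 0.25, limma adjusted p = 2.9e-08) and 132459, 119531 and 111980.3 with IFN-gamma. The treated groups did not overlap the untreated ones, and the log2 difference of IL-4 minus IFN-gamma was -6.92 for Gbp2 and -8.26 for Nos2. Of 14 IFN-gamma-linked GTPases 6 rose, none fell and 8 did not pass the test (1 fell without the untreated library of replicate 3; median 0.46), and of 28 antiviral genes 14 rose and 1 fell (median 0.58), among them Isg15 at 1.35 and Zbp1 at 1.77. The chemokine Cxcl9 was at -2.33 (adjusted p = 0.025, limma; not called without the IL-4 library of replicate 2, without the untreated library of replicate 1 or 3, or in a fit of the 6 WT libraries alone), and Cxcl10 at 0.14 and Cxcl11 at 0.20 did not pass the test. Ifit1 was at 0.34 and did not pass the test (adjusted p = 0.31, limma).

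Setting the IL-4 libraries directly against the IFN-gamma libraries, 8649 genes differed (60.5%), 4248 higher (29.7%) and 4401 lower (30.8%) with IL-4. Of the 624 genes at least 2-fold higher with IL-4 than untreated, 347 were also higher than with IFN-gamma, 170 were lower and 107 did not differ by the test. Of the 680 at least 2-fold lower, 256 were also lower than with IFN-gamma, 171 were higher and 253 did not differ by the test. The 624 and 680 genes were selected through the same IL-4 libraries that are set against IFN-gamma here. Selection thus favors genes on the same side of IFN-gamma, and these splits are descriptions. Both responses share the untreated libraries, so levels are given side by side. Mrc1 was at 94.3, 171 and 249 with IFN-gamma (log2 difference 8.54, SE 0.25, limma adjusted p = 1.6e-14), and Ptgs1, cyclooxygenase 1, at 380.0, 382 and 396 untreated, 2381, 3390.2 and 3499 with IL-4 and 39.3, 31.6 and 38.9 with IFN-gamma (log2 difference 6.35, SE 0.15, limma adjusted p = 1.6e-15). Itgb3 was at 3305, 3039 and 3506 with IL-4 and 19.6, 7.89 and 5.90 with IFN-gamma, on either side of the untreated 877, 573 and 537. Cish was at 1655, 681 and 657 with IFN-gamma and did not differ from IL-4 by the test (log2 difference -0.52, SE 0.35, limma adjusted p = 0.21). Socs1 was higher with IFN-gamma, at 10420.1, 10404 and 10415 (log2 difference -3.55, SE 0.20, limma adjusted p = 4.8e-11), and Socs2 was low there, at 12.8, 7.89 and 5.90 (log2 difference 4.62, SE 0.37, limma adjusted p = 6.7e-09).

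**Figure D4:**
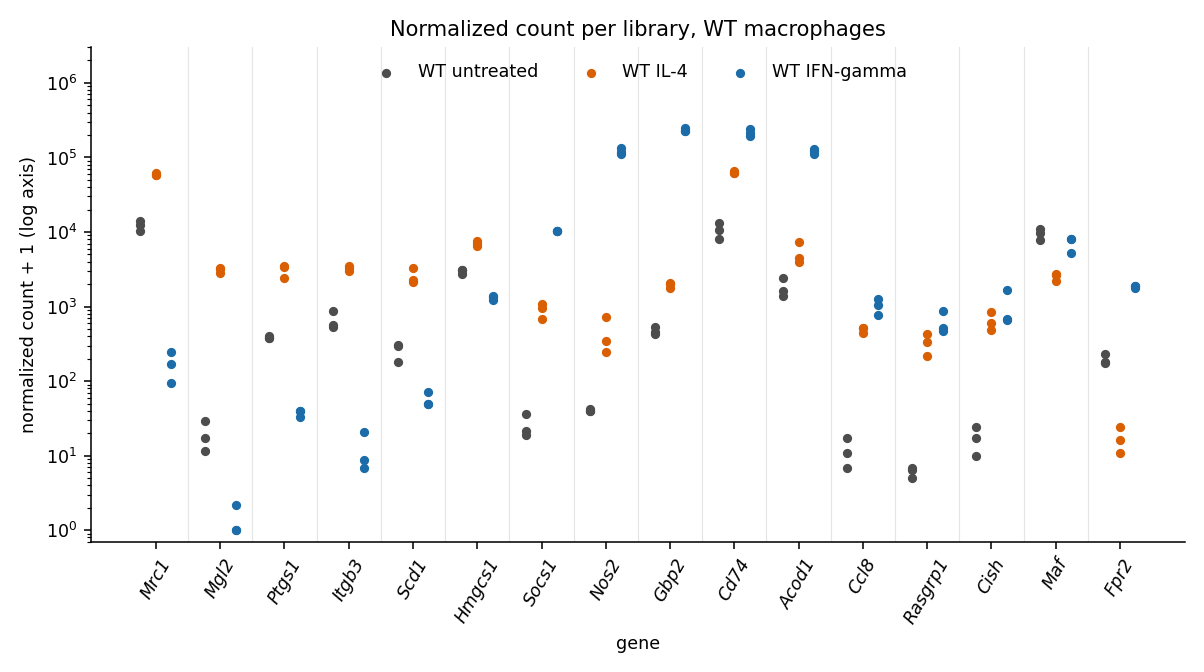
Normalized count + 1 (vertical, log axis) of 16 genes in the 3 untreated, 3 IL-4 and 3 IFN-gamma WT libraries, 1 point per library. Mrc1, Mgl2, Ptgs1 and Itgb3 are highest with IL-4 and lowest with IFN-gamma, whereas Socs1, Nos2, Gbp2, Cd74 and Acod1 are highest with IFN-gamma.

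Proliferation genes fell together. Of 24 mitosis genes 23 were lower, 19 of them at least 2-fold, with a median of -1.47, and of 25 replication genes 19 were lower and none higher, with a median of -0.67, beside 14% of all tested genes called lower. Plk1, the polo-like kinase of mitotic entry, went from 202, 221 and 237 to 62.3, 13.1 and 35.6 (log2 change -2.79, SE 0.39, limma adjusted p = 3.1e-05), Cenpf, a centromere protein, from 467, 401 and 475 to 120.2, 49.2 and 58.1 (log2 change -2.65, SE 0.36, limma adjusted p = 2.5e-05) and Mki67, which encodes Ki-67, from 2448, 2572 and 2623 to 1344, 734 and 717 (log2 change -1.51, SE 0.29, limma adjusted p = 6.4e-04). The IL-4 library of replicate 1 had the highest treated level of all 3, yet below every untreated library. In replication, the licensing factor Cdc6, the ribonucleotide reductase subunit Rrm2 and the helicase subunit Mcm5 fell, with log2 changes of -2.63, -2.05 and -1.26, while Pcna, the sliding clamp, was at 0.24 (adjusted p = 0.22, limma; called higher without the IL-4 library of replicate 1). Further large falls outside these lists were the repressor E2f7 (-2.87) and the mitotic kinase Pbk (-2.98). Of 15 tested D cyclins, CDK inhibitors and related genes, 1 rose, 4 fell and 10 did not pass the test, with a median of -0.46. The 1 that rose was the inhibitor Cdkn1a (p21), by 0.98, and cyclin D1, Ccnd1, was among the 4 that fell, by 1.04. The lower members numbered 7 without the IL-4 library of replicate 1 and 8 with the code as a block over 18 libraries. The higher members numbered 2 without the IL-4 library of replicate 2.

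Promoters of mitotic genes often carry TTTGAA, letters known as the cell cycle homology region, which are printed in capitals for Plk1 and Ccnb2 (cyclin B2); this motif was also added after the lists had been seen, and it can lie inside a TTCNNNGAA match, as in Ccl17.
Plk1, chr7:122159185-122159484, plus strand: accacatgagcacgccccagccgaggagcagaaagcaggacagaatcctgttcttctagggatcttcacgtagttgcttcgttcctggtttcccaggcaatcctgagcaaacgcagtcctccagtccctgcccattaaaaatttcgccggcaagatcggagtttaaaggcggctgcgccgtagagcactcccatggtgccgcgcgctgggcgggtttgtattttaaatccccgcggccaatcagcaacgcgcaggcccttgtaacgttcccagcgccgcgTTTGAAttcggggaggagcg
Ccnb2, chr9:70421505-70421804, minus strand: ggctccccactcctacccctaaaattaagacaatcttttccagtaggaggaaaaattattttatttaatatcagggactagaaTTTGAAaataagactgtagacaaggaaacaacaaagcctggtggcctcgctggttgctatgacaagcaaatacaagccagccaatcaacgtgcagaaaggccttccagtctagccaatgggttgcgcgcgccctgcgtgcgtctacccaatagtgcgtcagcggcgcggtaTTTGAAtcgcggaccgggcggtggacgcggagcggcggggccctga
In Plk1 the match begins at base 31 after the start, in Ccnb2 at base 5 after it and 167 bases before it. TTTGAA on either strand occurred in 13 of 19 mitosis genes with a window, in 23.08% of genes called at least 2-fold lower, in 16.29% of those at least 2-fold higher and in 14.66% of all tested genes (17.89% of all windows). It also occurred in 7 of 19 alternative activation markers, which mostly rose, and in 3 of 19 replication genes. The counts were 2 of 10 for fatty acid synthesis, 1 of 15 for cholesterol synthesis and 1 of 8 for feedback inhibitors. TTTCGCG, letters known for E2F factors and likewise added, occurred in 6 of 19 replication genes and 2.01% of all genes. Ccnb2 itself went from 360.5, 319 and 337 to 98.3, 148 and 66.3 (log2 change -1.77, SE 0.27, limma adjusted p = 7.1e-05).

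The remaining large falls were mostly in surface receptors and enzymes. Cmah, which makes the sialic acid Neu5Gc, went from 218, 306 and 395 to 3.28, 6.56 and 4.38 (log2 change -5.74, SE 0.44, limma adjusted p = 3.0e-08), leaving 1.55% of its untreated mean, the largest fall among the named genes. The paired receptors Pilra, Pilrb1 and Pilrb2, near-identical in sequence so that reads may be split between them, had log2 changes of -3.28, -5.33 and -4.81. Adgre4, a relative of F4/80, stood at -4.66, the Fc receptor-like Fcrl1 at -3.54, the sialyltransferase St3gal6 at -3.26, the Wnt inhibitor Dkk2 at -3.28 and the oxidase Nox1 at -3.76. Sez6l2, a membrane protein best known from neurons, was at -3.55. The small nuclear RNA Rn7sk, read here in poly A-selected libraries, was at -4.45, with untreated values spread over 528, 1506 and 1128. The sialic acid receptors Siglece and Cd33 also fell, at -2.21 and -1.79.

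Secreted factors, prostaglandin enzymes and iron genes held changes in both directions. Of 26 cytokines and growth factors 8 rose and 7 fell: Hbegf, an EGF-type growth factor, went from 6.82, 7.22 and 13.2 to 133, 161 and 166 (log2 change 3.99, SE 0.32, limma adjusted p = 6.0e-08), and Csf1, the gene of M-CSF, from 199, 157 and 123 to 2568, 990.2 and 1207 (log2 change 3.21, SE 0.32, limma adjusted p = 6.3e-07). Tnf and the efferocytosis ligand Gas6 fell, with log2 changes of -0.60 and -1.50. Ptgs2, cyclooxygenase 2, was at 40.9, 29.8 and 32.3 untreated and 1022, 193 and 228 with IL-4 (log2 change 3.35, SE 0.47, limma adjusted p = 2.8e-05), the library of replicate 1 about 5 times the other treated libraries. Hpgd, which degrades prostaglandins, went from 790.1, 1488 and 1751 to 49.1, 108 and 125 (log2 change -3.85, SE 0.54, limma adjusted p = 2.9e-05), and the lipoxygenase Alox5 fell by 2.60. The transferrin receptor Tfrc, which takes up iron, rose by 1.29, and Slc40a1, ferroportin, which exports it, went from 2925, 3009 and 3448 to 684, 518 and 475 (log2 change -2.50, SE 0.16, limma adjusted p = 3.2e-09).

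Of 22 genes of Toll-like receptors and their adaptors, the sensors of microbial products, 8 fell and 4 rose: Tlr2, Tlr9 and Tlr7 fell, with log2 changes of -1.06, -1.31 and -0.78, whereas Tlr8 rose by 1.12 and Tlr4 was at 0.19. The coreceptor Cd14 was at 35323, 34251 and 35672 untreated and 29487, 11354 and 13435 with IL-4 (log2 change -1.09, SE 0.30, limma adjusted p = 0.011), a call lost without the IL-4 library of replicate 2. Within the IL-1 receptor family 6 of 8 tested rose and none fell (1 fell without the IL-4 library of replicate 1), led by Il1rl2, the receptor of IL-36 (3.72), while the inflammasome sensor Nlrp3 and the NF-kB regulator Nfkbiz fell, at -1.14 and -1.91.

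The largest gains in normalized counts, which grow with transcript length, were led by genes of lysosomal and secreted proteins. Psap, prosaposin, went from 334908, 275026 and 238078 to 631575, 521754 and 563884 (log2 change 1.03, SE 0.15, limma adjusted p = 5.2e-05), Lgals3, galectin 3, rose by 0.94 and the cathepsin Ctsl by 2.09. The cathepsin Ctss rose by 0.69 but was not called after quantile normalization, and Gpnmb, a glycoprotein of lysosomes and melanosomes, at 0.51, lost its call there, in the fit of the 6 WT libraries alone, and without the IL-4 library of replicate 1 or the untreated library of replicate 3. The ferritin chain Fth1 (0.29) and the cathepsin Ctsb (0.23) gained many counts at a small fold and did not pass the test, nor did the 3 features that were high in the IL-4 library of replicate 2 (Mir6236 was called in edgeR, and Mir6236 and Lars2 without the IL-4 library of replicate 3); Ctsb was called in DESeq2 (log2 change 0.24, adjusted p = 0.000385). The largest losses were led by Lyz2, the macrophage lysozyme, from 700319, 622865 and 571538 to 380103, 359961 and 350107 (log2 change -0.79, SE 0.10, limma adjusted p = 1.3e-05), the pore-forming Mpeg1 at -0.75, the endocytic receptor Lrp1 at -0.66 and the selenium carrier Selenop at -1.10. Sirpa, the receptor for CD47, was at -0.39. The mitochondrial ribosomal RNA mt-Rnr2 (-0.66) did not pass the test (it did after quantile normalization and without the IL-4 library of replicate 2), and the actin-binding Tmsb4x was at -0.53 (adjusted p = 0.018, limma), a call lost without the IL-4 library of replicate 1 or the untreated library of replicate 2, and in a fit of the 6 WT libraries alone. Apoe, the lipid carrier, gave 87229, 139377 and 152583 and 61430.2, 124823 and 115774 and did not pass the test (log2 change -0.35, SE 0.34, limma adjusted p = 0.47). Of 36 ribosomal protein genes 1 was called higher, Rps18 at 0.38, a call lost without any of 4 single libraries; the count ran from 0 to 7, the highest without the IL-4 library of replicate 1.

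The KO libraries, with 3 other codes, gave a similar number of called genes. The targeted gene was read first as a check of the labels: Ldha was at 2128, 2261 and 2591 in untreated KO and 4105, 4218 and 4226 in IL-4-treated KO libraries, against 12204, 11939 and 10712 and 22901, 23518 and 25145 in WT, so every KO library lay below every WT library. In KO cells 4318 genes were called (30.2%), of which 3204 were called in WT in the same direction, 73.96% of the WT calls and 74.2% of the KO calls, with 0 called in opposite directions. Arg1 changed by 11.20 in KO and 10.14 in WT, Mrc1 by 2.13 and 2.30, Hmgcs1 by 1.27 and 1.23, Plk1 by -2.10 and -2.79. The difference between the 2 responses was called for 1 gene in limma (0.007% of those tested) and for 1 in edgeR and 17 in DESeq2. In limma 774 of the 14288 genes tested had an unadjusted p under 0.05, where a share of about 0.05 would fall with no difference. The called gene was Gm6192, annotated as a processed pseudogene at chr19:7959743-7961107, so that its reads may be shared with a parent gene: it went from 366, 363 and 332 to 69.9, 82 and 80.0 in WT and from 317, 372 and 293 to 378, 353 and 337 in KO (log2 difference 2.31, SE 0.23, limma adjusted p = 1.8e-04). The next smallest p-values were those of Nos2, with 3.28 in WT and 5.46 in KO (log2 difference 2.19, SE 0.35, limma adjusted p = 0.067), Apobr, a lipoprotein receptor (adjusted p = 0.13, limma), Pecam1, an adhesion molecule (0.13), and Tm6sf1 (0.17). These 4 did not pass the threshold, which does not show that the genotypes responded alike: in DESeq2 all 4 passed, Nos2 passed after quantile normalization, with 5 added before the log, with every gene tested and without the WT IL-4 library of replicate 1 or 2, and Pecam1 without the WT untreated library of replicate 1.

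**Figure D5:**
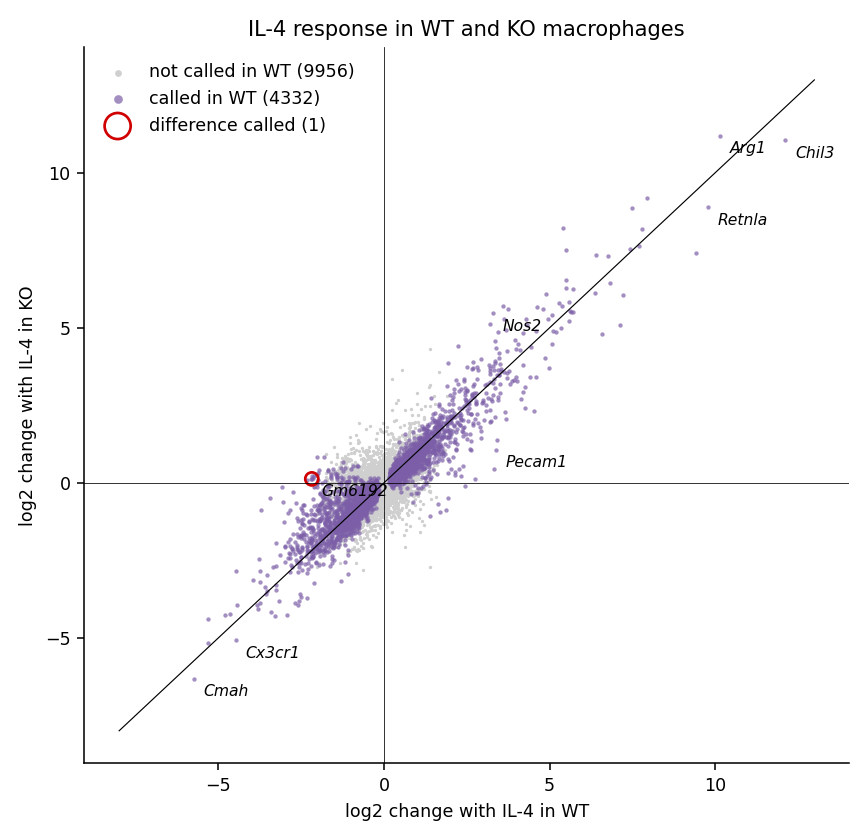
Log2 change with IL-4 in KO (vertical) against WT macrophages (horizontal), 1 point per tested gene, with genes called in WT in purple, the diagonal as a line, and a red ring on the 1 gene whose difference was called. Arg1, Chil3 and Retnla lie far up along the diagonal, Cx3cr1 and Cmah far down, and Gm6192 lies off it at -2.18 in WT and 0.13 in KO.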

How the data were processed

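RNA was extracted with Trizol, and poly A-selected, directional libraries (NEBNext Ultra II) were sequenced on a NextSeq500, per the labels' protocols. The submitters' processing notes name STAR 2.5, HTSeq 0.6, DESeq2, edgeR and GRCm38; for the strand setting and annotation version, nothing is given there. The deposited signal values are the authors' normalized read counts per gene, from 1 table of 18 libraries. In each library 100% of the values were whole multiples of the smallest (tolerance 0.1 read), which gives the depths; intervals and floors cover counting error only.

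Tests used limma 3.58.1 with a trend on log2(normalized count + 1), 14288 genes with at least 10 counts in 3 libraries, 6 group means over 18 libraries (12 residual degrees of freedom) and Benjamini-Hochberg adjustment; adjusted p under 0.05 was called. edgeR 4.0.16 and DESeq2 1.42.0 were run on the recovered reads of 17 libraries, without KO IL-4 replicate 1, whose step lies too near 1 to pass the recovery check; edgeR called 4508 genes. The scripts were tested on simulated data. Libraries carry a code shared over treatments, which no label explains. Nothing in the labels says that libraries of a group came from separate animals or cultures, so p-values measure only the spread between these samples, which may be technical. Alternatives were other pseudocounts, filters, scalings, tools, fits of the compared groups alone, the code as a block, a stricter threshold and leaving out each library.

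Genes named are the 20 with the largest change in each direction (the higher group at 100 counts or more on average, no overlap, no gene models), the 10 with the smallest adjusted p, the 10 with the largest difference in counts in each direction, the 5 with the smallest p of the KO difference, and members of the lists. The members and lists were chosen with earlier results of these data known. Promoter windows came from RefSeq (GRCm38.p6) by symbol, for 10230 of 14284 genes with a unique symbol. A few genes that the rule names are not reported here.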

Additional observations from a re-analysis of the deposited data

Results flagged for a closer look

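Gm6192 was singled out because its response to IL-4 differed between the genotypes: the log2 change was -2.18 in WT and 0.13 in KO, a difference of 2.31 (limma adjusted p = 1.8e-04, interaction term). The 3 WT IL-4 libraries lay below the 3 untreated ones, while the KO values spanned 293 to 372 untreated and 337 to 378 with IL-4, which overlap. With groups of 3 libraries, no test for single outlying libraries was made.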

How the results depend on the processing

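The number of genes called in the WT response ran from 3400 to 5087 over the alternatives that kept all libraries and the threshold of 0.05, with 0 genes called in opposite directions, and was 2850 (1223 lower) at an adjusted p under 0.01. With 1 library left out it ran from 3238 to 4552, being 4027 without the shallow IL-4 library of replicate 2, of which 3523 were among the 4332. The genes changed by at least 2-fold numbered 832 with a mean of at least 50 required. The difference between KO and WT, called for 1 gene, gave 3 genes where 5 was added before the log, 2 where every gene was tested, 2 after quantile normalization, 17 in DESeq2, and 1 to 3 with 1 library left out.

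Of 199 named genes called in the WT response, 186 kept call and direction in every alternative that tested them and 0 changed direction. A named gene that an alternative did not test, for example through its filter, counted as kept there. Among genes not called, quantile normalization turned Csf1r to -0.14, Ctsb to -0.069, Fth1 to -0.073 and Il7r to -0.017. With 1 library left out, Cxcl10 ran from -0.025 to 0.41 and Cxcl11 from -0.38 to 0.67, and CT010467.1 was at -0.56 without the IL-4 library of replicate 2, -0.10 without the untreated library of replicate 1 and 0.56 without the IL-4 library of replicate 3. The cause was not tested. With 3 libraries a group, changes of low-count genes are limited by depth, most of all in the IL-4 library of replicate 2.

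The labels give untreated and IL-4 WT libraries the same 3 codes. Deviations from the group means of same-coded libraries correlated at 0.24, 0.037 and 0.0036 over genes, and in 1 of 3 pairs the own code correlated best. With 3 libraries a group this cannot show whether the codes pair the samples. The main fit left them unpaired because no label explains the code. With the code as a replicate block over 18 libraries the WT response gave 5087 genes, of which 4296 were among the 4332, and the difference between KO and WT gave 12, Nos2 and Pecam1 included. The block ended no call of a named gene in the WT response and added 7: Cd163, Cpt1a, Il4ra, Il7r, Mir6236, Myc and Pcna. Cish then differed between IL-4 and IFN-gamma. With the block in the 6 WT libraries alone, 5 named genes were no longer called (Bcl6, Gpnmb, H2-DMb2, Pdgfrb and Sirpa), and Myc and mt-Rnr2 were.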

Other observations

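The gene lists given here were read against 16.3% of all tested genes called higher and 14% called lower. Adhesion and recognition genes moved in both directions. Of 12 tested integrin subunits 3 rose and 5 fell: Itgb8, a beta chain known for activating TGF-beta, went from 4.87, 9.92 and 9.88 to 112, 197 and 194 (log2 change 4.20, SE 0.26, limma adjusted p = 2.3e-09), and Itga1, a collagen-binding alpha chain, rose by 3.65 on the log2 scale, while Itga6 and Itga8 stood at -1.40 and -2.03. Itgax, which encodes CD11c, went from 2729, 2704 and 1802 to 22545, 20977 and 26247 (log2 change 3.29, SE 0.24, limma adjusted p = 1.4e-08), with no overlap between the groups, and Zbtb46, a transcription factor used as a dendritic-cell marker, from 0.974, 0.902 and 3.95 to 36, 16.4 and 16.2 (log2 change 3.08, SE 0.57, limma adjusted p = 5.0e-04). Of 13 tested dendritic-cell markers these 2 rose and 1 fell, Bcl6 at -0.22 (limma adjusted p = 0.0054; 3 fell without the IL-4 library of replicate 1). Of 16 complement genes 5 rose, with C3 at 1.81 and 3 fell. Of 18 C-type lectins and related genes outside the activation markers 4 rose and 6 fell, among them the galectin Lgals1 at 0.94 and Clec12a at -1.30. Fcgr2b, the inhibitory Fc receptor, went from 2952, 2528 and 2352 to 14839.8, 12905 and 12382 (log2 change 2.36, SE 0.13, limma adjusted p = 6.5e-10). The efferocytosis receptor Mertk and the scavenger receptor Stab1 were lower, at -1.03 and -0.94, and the bridging protein Mfge8 was higher, at 1.30.

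After 24 hours of IL-4, 10 of 22 tested immediate early genes were higher than in untreated cells and 5 were lower. Nr4a3, an orphan nuclear receptor, went from 1.95, 0.902 and 0.659 to 64.4, 13.1 and 21.9 (log2 change 3.72, SE 0.44, limma adjusted p = 4.9e-06). The 3 treated libraries lay above the untreated ones. Ier3 rose by 3.27. Fosl2 and Junb, partners in AP-1, rose by 2.13 and 1.18, and the phosphatase Dusp4, which acts on MAP kinases, by 1.68, while Dusp6 and Egr3 were lower, at -0.81 and -2.26. Of 17 NF-kB subunits and inhibitors 6 rose and 3 fell (5 fell after quantile normalization), Rel at 1.21 and the inhibitor Tnfaip3 (A20) at 0.85. Of 13 interferon regulatory factors and STATs 6 rose and none fell (1 fell after quantile normalization), led by Irf1 at 1.33, Irf7 at 1.17 and Stat2 at 0.98. Of 24 matrix and remodelling genes 5 rose and 1 fell (8 rose without the IL-4 library of replicate 2 or the untreated library of replicate 1, in edgeR or in DESeq2; 2 fell without the IL-4 or the untreated library of replicate 3), the collagenase Mmp13 going from 202, 188 and 169.9 to 3292, 2003 and 1899 (log2 change 3.63, SE 0.34, limma adjusted p = 3.5e-07) and the crosslinking enzyme Lox standing at -1.26.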
